A study of Mus musculus with 4 samples.

Results

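A set of 7 integrin subunit genes is described here in CD8 T cells: Itga1, Itga4, Itgae, Itgal, Itgb1, Itgb2 and Itgb7. They were chosen by name, not by their values, and are 7 of the 12763 genes in the deposited table. All 7 were found. The table holds 6965 cells in 4 single-cell RNA libraries, 1 library for each combination of organ (spleen or B16K1 melanoma) and CD137 status. Recipients were C57BL/6 mice, lethally irradiated with 8 Gy and given bone marrow of both Cd4cre Cd137fl/fl ROSA26tomato donors and Cd137fl/fl ROSA26tomato donors. Reconstitution was checked after 7 weeks, and B16K1 cells, a line of the B16 mouse melanoma, were then placed under the skin. CD8 T cells were taken on day 21 from spleen and tumour, and the tomato reporter split them into a fraction called CD137 minus, from marrow in which Cre under the Cd4 promoter deletes Cd137, and a fraction called CD137 plus, whose marrow carries the floxed gene without Cre. Tnfrsf9 is the gene of CD137, which costimulates T cells after activation. The cells of 7 mice were pooled in each library and the table names no mouse for a cell, so a group is 1 sample. Differences below are between libraries, with no replicate, no standard error and no p-value, and Cre and donor cannot be told apart from CD137 loss.

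An integrin is a pair of an alpha and a beta chain that spans the membrane and grips a ligand once signals inside the cell have switched it to its active shape. Itgal and Itgb2 encode LFA-1, which binds ICAM proteins and holds T cells to blood vessels and to target cells. Itga4 pairs with Itgb1 as VLA-4, which binds VCAM-1 and fibronectin, or with Itgb7, which binds MAdCAM-1 of gut vessels. Itgae pairs with Itgb7 as CD103, which binds E-cadherin and is known for T cells resident in epithelium, where TGF-beta induces it. Itga1 pairs with Itgb1 as VLA-1, a receptor for collagen IV that is known as a further marker of resident T cells.

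The libraries held 2464 cells for spleen CD137 minus, 473 for spleen CD137 plus, 1262 for tumour CD137 minus and 2766 for tumour CD137 plus. Values in the table are natural logs of 1 plus a whole number, called a corrected count here. Median totals per cell ranged from 3702 in tumour CD137 plus to 5344 in spleen CD137 plus, so most shares of cells with a value are also given after thinning every cell to 2900 corrected counts. Levels are corrected counts scaled to a group total of 1000000 (CPM). All 9 CD8 T cell markers were present in each library, with a summed level of 7502 to 8701 CPM. Melanoma markers summed to 79.5 CPM in tumour CD137 minus and 85.5 CPM in tumour CD137 plus, against 12.9 and 9.73 CPM in the spleen libraries of CD137 minus and plus. Macrophage and monocyte markers summed to 194 and 296 CPM in the tumour libraries against 121 and 104 CPM in spleen, where Lyz2, C1qa, C1qb and C1qc were at 0. B cell markers summed to 359 and 533 CPM in tumour and 434 and 347 CPM in spleen. Markers of CD4 and regulatory T cells summed to 111 and 113 CPM against 21.0 and 12.6 CPM, and those of NK cells to 111 and 158 against 37.7 and 77.4 CPM. Cd4 itself did not exceed 4.14 CPM in a library. The libraries share 19 barcodes between them, borne by 38 cells. Tnfrsf9 was at 57.5 CPM in tumour CD137 minus and 421 CPM in tumour CD137 plus, and at 2.34 and 16.2 CPM in the 2 spleen libraries.

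Itga1 and Itgb1, which encode the chains of VLA-1, were both higher in tumour than in spleen. Itga1 was at 1.73 CPM in spleen CD137 minus, 3.65 in spleen CD137 plus, 26.8 in tumour CD137 minus and 29.5 in tumour CD137 plus. Both tumour libraries were above both spleen libraries. A value for Itga1 was found in 0.446% of cells of spleen CD137 minus (exact Clopper-Pearson 95% interval 0.223 to 0.797), 1.48% of spleen CD137 plus (0.597 to 3.03) and, in the tumour, 7.92% of CD137 minus (6.49 to 9.55) and 8.89% of CD137 plus (7.86 to 10.02). After thinning these shares were 0.365%, 0.846%, 5.07% and 6.80%. All intervals given here cover counting error only. Itgb1, the partner chain, was at 62.9 CPM in spleen CD137 minus, 143.9 in spleen CD137 plus, 295 in tumour CD137 minus and 312 in tumour CD137 plus. The cells with a value made up 15.7%, 30.4%, 44.5% and 48.8% of these libraries, and 12.3%, 22.6%, 35.1% and 43.2% after thinning. The order of the 4 libraries was the same for both genes.

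Itgb7 ran the other way. It was at 288 CPM in spleen CD137 minus, 325 in spleen CD137 plus, 118 in tumour CD137 minus and 117 in tumour CD137 plus, so that both spleen libraries were above both tumour libraries. A value was found in 61.6% (59.7 to 63.5), 76.5% (72.5 to 80.3), 32.9% (30.3 to 35.6) and 26.7% (25.0 to 28.4) of cells, and in 51.4%, 56.5%, 24.6% and 22.3% after thinning. Itgae, the alpha chain of CD103, was low everywhere, at 22.4 CPM in spleen CD137 minus, 15.4 in spleen CD137 plus, 18.4 in tumour CD137 minus and 12.8 in tumour CD137 plus. The ranges of the 2 organs overlapped, and the label of a residency integrin was not matched by a higher Itgae level in tumour. Its cells made up 7.55% (6.54 to 8.66), 5.497% (3.62 to 7.95), 5.63% (4.42 to 7.04) and 3.80% (3.11 to 4.58) of the libraries, and 6.05%, 3.38%, 4.20% and 2.96% after thinning.

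The other 3 members did not separate the organs. Itga4 was at 93.3 CPM in spleen CD137 minus, 150.0 in spleen CD137 plus, 127.7 in tumour CD137 minus and 149.6 in tumour CD137 plus. Itgal was at 62.3, 94.1, 85.3 and 87.0 CPM in the same order of libraries, and Itgb2 at 153, 250.5, 131 and 205 CPM. For all 3 genes the spleen CD137 plus library was the highest of the 4. For Itga4 and Itgal the spleen CD137 minus library was the lowest, and for Itgb2 the tumour CD137 minus library. The intervals of the shares of cells with Itga4 overlapped between spleen CD137 plus (31.1%, 26.9 to 35.5), tumour CD137 minus (30.3%, 27.8 to 32.97) and tumour CD137 plus (31.7%, 29.9 to 33.4). After thinning these were 20.3% (16.8 to 24.2), 22.1% (19.8 to 24.5) and 26.4% (24.8 to 28.1), so that tumour CD137 plus lay apart from the other two. The thinned shares of Itgal were 15.6%, 19.5%, 20.2% and 19.2% and those of Itgb2 33.3%, 46.1%, 27.2% and 37.6%, in the order of the libraries above.

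**Figure D1:**
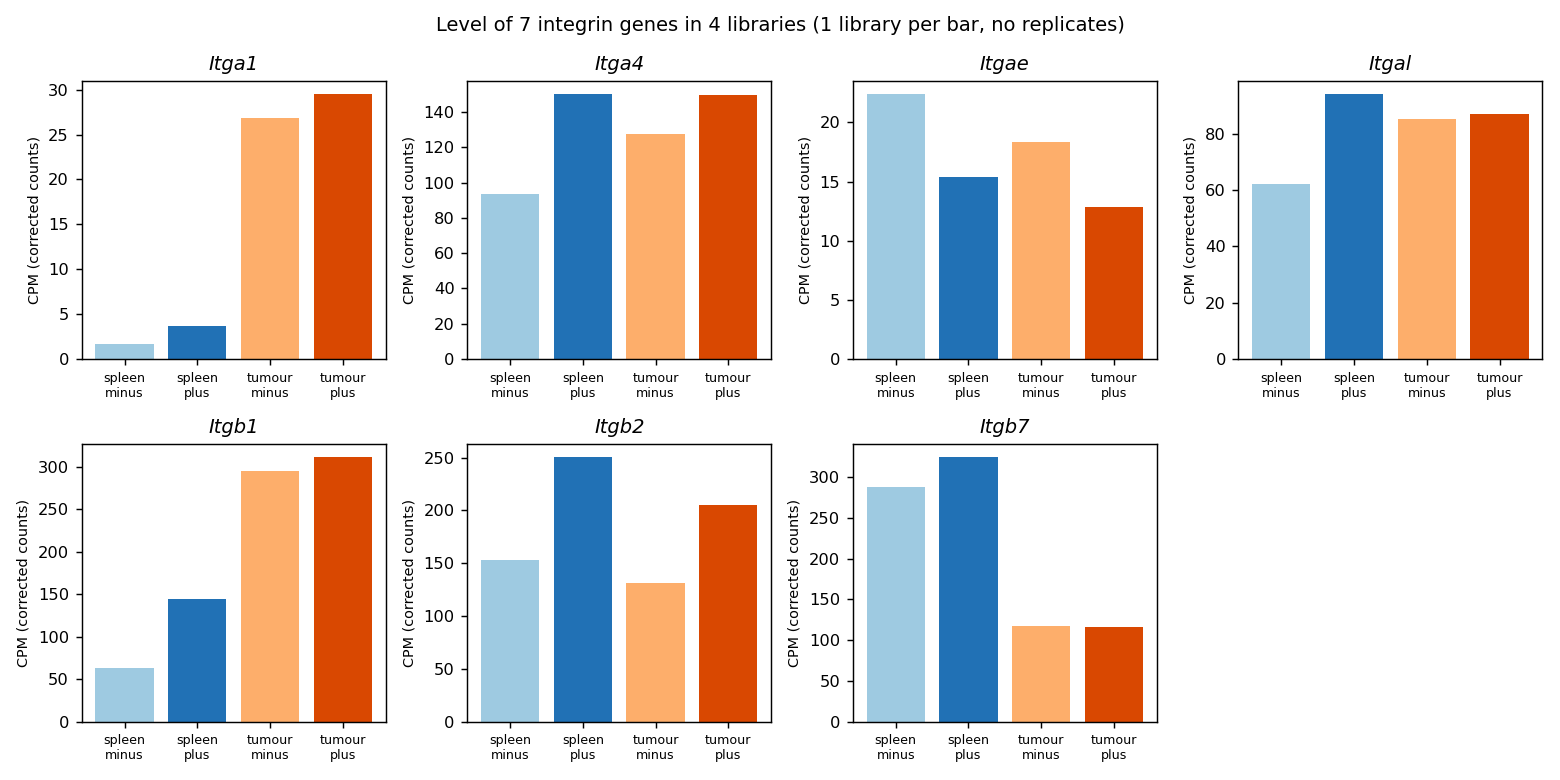
Level of each integrin gene in each library, in CPM of corrected counts from 0, with 1 bar per library and no error bar because a group is 1 library. Itga1 and Itgb1 are higher in both tumour libraries than in both spleen libraries, Itgb7 is lower there, and Itgae, Itga4, Itgal and Itgb2 overlap between organs.

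The promoters of Itga1, Itgb1 and Itgb7 are shown because the first 2 genes followed each other across the libraries and the third ran against them, and that of Itga4 because its chain can pair with either beta chain. They are the 250 bases before the RefSeq start site, on the gene's strand in GRCm38.p6, and RefSeq windows were matched for 4 of the 7 genes. Capitals mark 6-letter motifs searched on both strands, which did not overlap each other in these windows. The core of RUNX sites was taken as TGTGGT and was held by 14.05% of 32851 promoter windows of this length. The GC box was taken as GGGCGG, which 32.7% of the windows held. A KLF-type box was taken as CCACCC, held by 28.1%. The SMAD-type motif was taken as CAGACA, held by 17.1% of windows. The TATA box was taken as TATAAA, held by 12.4%.
Itga1, chr13:115101965-115102214, minus strand: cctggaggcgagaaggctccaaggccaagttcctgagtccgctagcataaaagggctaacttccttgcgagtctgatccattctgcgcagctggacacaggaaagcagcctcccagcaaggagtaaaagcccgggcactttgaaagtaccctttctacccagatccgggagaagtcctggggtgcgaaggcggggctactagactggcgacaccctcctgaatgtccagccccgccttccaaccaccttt
Itgb1, chr8:128685404-128685653, plus strand: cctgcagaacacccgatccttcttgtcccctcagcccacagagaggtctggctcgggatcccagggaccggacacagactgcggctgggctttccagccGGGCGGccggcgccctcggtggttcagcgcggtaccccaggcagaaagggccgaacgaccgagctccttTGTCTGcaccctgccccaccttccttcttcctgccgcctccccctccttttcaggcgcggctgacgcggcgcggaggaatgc
Itgb7, chr15:102231936-102232185, minus strand: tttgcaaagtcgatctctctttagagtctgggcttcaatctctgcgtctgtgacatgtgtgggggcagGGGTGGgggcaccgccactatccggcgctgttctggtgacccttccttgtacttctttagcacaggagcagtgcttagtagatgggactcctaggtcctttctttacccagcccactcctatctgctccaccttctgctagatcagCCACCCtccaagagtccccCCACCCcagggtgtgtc
Itga4, chr2:79255176-79255425, plus strand: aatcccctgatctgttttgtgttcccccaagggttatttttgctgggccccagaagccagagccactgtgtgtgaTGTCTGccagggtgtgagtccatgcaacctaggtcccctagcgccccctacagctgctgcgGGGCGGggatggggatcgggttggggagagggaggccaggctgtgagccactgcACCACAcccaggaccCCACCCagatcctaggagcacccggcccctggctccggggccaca
The Itga1 window held none of the 5 motifs. The Itgb7 window held the KLF-type box 3 times, starting at -36 and -17 and, on the opposite strand, at -182, counted back from the start site. The Itgb1 window held a GC box at -151 and a SMAD-type motif at -82. The Itga4 window held 1 each of the RUNX core, GC box, KLF-type box and SMAD-type motif. These are letter matches in a window, and binding was not measured.

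In the GENCODE annotation of GRCm38, Itga1 spans chr13:114953096-115101964 on the minus strand, Itga4 chr2:79255426-79333123 (plus), Itgae chr11:73090583-73147446 (plus), Itgal chr7:127296260-127335138 (plus), Itgb1 chr8:128685654-128733200 (plus), Itgb2 chr10:77530252-77565708 (plus) and Itgb7 chr15:102215995-102231944 (minus). Pelo lies within the Itga1 locus on the same strand, so reads could be split between them by the authors' counting. Pelo was at 16.7 and 20.7 CPM in the spleen libraries, where Itga1 was near 0, and at 24.3 and 29.3 CPM in the tumour libraries. Cerkl overlaps Itga4 and Haspin overlaps Itgae on the opposite strand, and neither exceeded 5.39 CPM in a library.

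Tumour was then compared with spleen within each CD137 fraction. A gene counted as measured when it reached 20 CPM and a value in 5% of cells in 1 of the groups and had a value in both, and a call needed a log2 ratio of CPM, with a pseudocount of 1 CPM, of 0.5 or more in size. In CD137 plus cells, Itgb1 was called higher in tumour, where 24.2% of 5710 measured genes were, and Itgb7 lower, where 17.5% were. The log2 ratio of tumour over spleen was 2.71 for Itga1, 1.11 for Itgb1 and -1.47 for Itgb7. It was -0.00381 for Itga4, -0.11 for Itgal and -0.29 for Itgb2, and Itgae (-0.24) was below the level filter. Itga1 passed that filter through the tumour libraries alone, so any call of it between organs had to be one of higher, and it is not counted as a call. In CD137 minus cells Itgb1 was again called higher and Itgb7 lower, with 22.0% of 5412 measured genes called higher and 14.5% lower. The log2 ratio there was 3.35 for Itga1, 2.21 for Itgb1, -1.28 for Itgb7, 0.45 for Itga4, 0.45 for Itgal, -0.27 for Itgae and -0.22 for Itgb2. The Itga1 ratios rest on 17 and 9 corrected counts in the spleen libraries of CD137 minus and plus and came to 1.65 and 1.53 with a pseudocount of 10 CPM. A restricted set held cells with Cd8a or Cd8b1 and without Cd79a, Lyz2, C1qa, Mlana or Pmel. It is called cells without other markers below, although further markers of other cell types were not used to remove cells. It kept from 94.5% of cells in tumour CD137 plus to 99.2% in spleen CD137 plus. In this set the CD137 plus ratios were 2.71 for Itga1, 1.12 for Itgb1 and -1.45 for Itgb7, and the CD137 minus ratios 3.53, 2.22 and -1.30. With a fixed total per cell, Itga4 (0.54) and Itgal (0.53) were also called higher in CD137 minus tumour cells. The median log2 ratio of all measured genes was 0.07 in CD137 plus and 0.03 in CD137 minus cells.

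CD137 minus was next compared with CD137 plus within each organ. In tumour 1 member was called, Itgb2, which was lower in the CD137 minus library (131 against 205 CPM, log2 ratio -0.64), where 5.44% of 5353 measured genes were called lower and 1.70% higher. The ratio of Itgb2 less the median of all measured genes, which was -0.13, was -0.51. The share of cells with a value for Itgb2 was 38.4% (35.7 to 41.2) in the CD137 minus library of the tumour and 44.5% (42.6 to 46.4) in its CD137 plus library, or 27.2% and 37.6% after thinning. From natural log values, summed and scaled in the same way, the log2 ratio of Itgb2 was -0.46. The log2 ratios of minus over plus were -0.13 for Itga1, -0.23 for Itga4, -0.03 for Itgal, -0.08 for Itgb1 and 0.01 for Itgb7. Itgae, under the level filter, was at 18.4 CPM in CD137 minus and 12.8 CPM in CD137 plus tumour cells (0.49).

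In spleen 4 members were called lower in the CD137 minus library, where 10.3% of 5183 measured genes were called lower, and 1.41% were called higher. The log2 ratio of minus over plus was -1.18 for Itgb1, -0.71 for Itgb2, -0.68 for Itga4 and -0.59 for Itgal. Itgae was at 0.51, but passed the level filter only through the CD137 minus library, in which it was higher, so it is not counted as a call. It came to 0.49 without cells of shared barcodes and to 0.35 with a pseudocount of 10 CPM, and Itgb7 was at -0.17. Itgal came to -0.49 with a fixed total per cell, and Itga4 to -0.27 from natural log values. The make-up of the 2 spleen libraries differed as well. Cells with a value for Ccl5, a chemokine of memory and effector CD8 T cells, were 48.1% of spleen CD137 minus and 69.1% of spleen CD137 plus. Within these ranges of detection, which are not cell types, Itgb1 was at 25.4 CPM in CD137 minus and 32.8 CPM in CD137 plus cells without Ccl5, and at 102 and 197 CPM in cells with it. Itgb2 was at 123 and 176 CPM without Ccl5 and at 184 and 286 CPM with it. For both genes the CD137 plus library was higher in each range. Itga4 was lower in CD137 plus cells without Ccl5 (96.8 CPM in CD137 minus and 79.4 in CD137 plus) and higher in those with it (89.6 and 183 CPM). The part of the libraries' unequal depth and make-up in these differences was not tested.

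**Figure D2:**
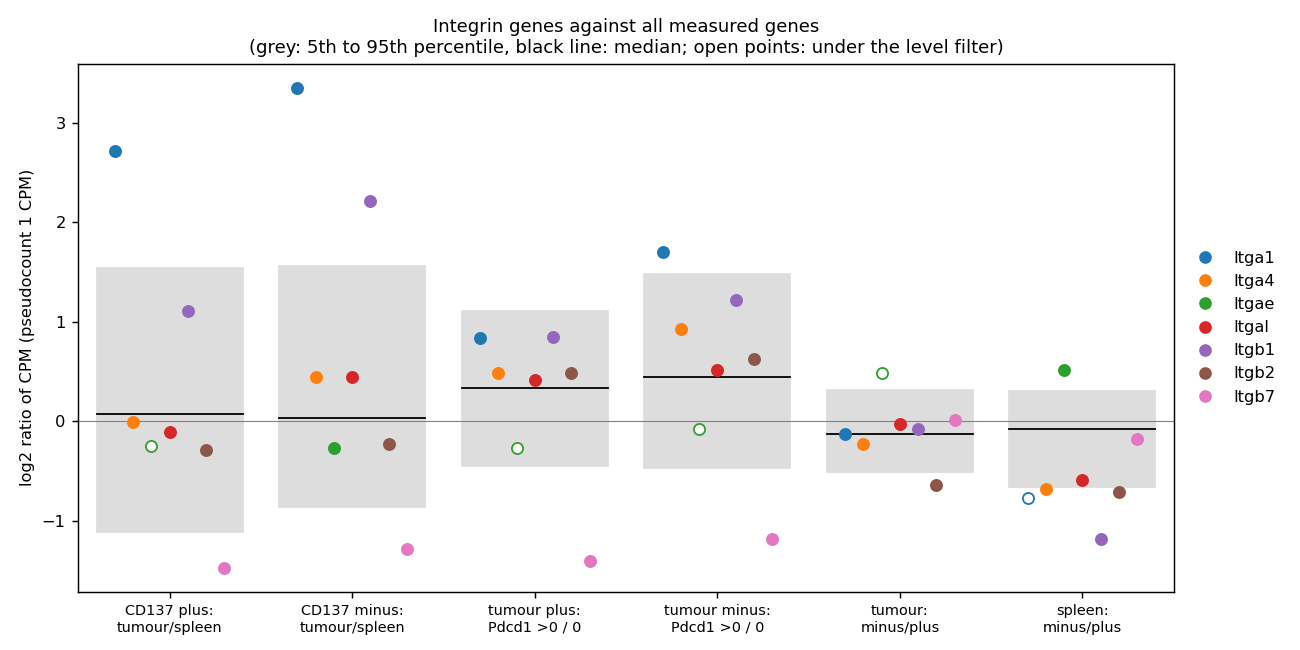
Log2 ratio of CPM for the 7 integrin genes in 6 comparisons, as points, with the 5th to 95th percentile of all measured genes as a grey band and their median as a black line. Open points were under the level filter. Itgb7 lies below the band in the 4 comparisons of organs and of Pdcd1. Itga1 lies above it between organs in both fractions and by Pdcd1 in CD137 minus. Itgb1 lies above it between organs in CD137 minus. Itgb2 lies below it between the tumour libraries. Between the spleen libraries Itgb1, Itgb2 and Itga4 lie below it and Itgae above it. Open points outside the band are not listed.

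Pdcd1 encodes PD-1, an inhibitory receptor of activated and exhausted T cells. Of the tumour libraries, CD137 minus held 514 cells with a value for Pdcd1 among 1262, and CD137 plus 1527 among 2766. Cells with Pdcd1 had more Itga1 and Itgb1 and less Itgb7 in both libraries. Cells with Pdcd1 also had more genes with a value, with medians of 1730 against 1334 genes in CD137 minus and 1499 against 1187 in CD137 plus, and the median log2 ratio of all measured genes was 0.44 and 0.34. Each ratio of an integrin gene is therefore given as measured and less that median.

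Itgb7 was at 66.7 CPM in tumour CD137 minus cells with Pdcd1 and 153 CPM in those without, and at 66.9 and 179 CPM in tumour CD137 plus cells. The log2 ratio was -1.19 in CD137 minus and -1.41 in CD137 plus, and -1.63 and -1.74 less the median. Itgb7 lay at the 1.08th percentile of measured genes in CD137 minus and at the 0.725th in CD137 plus. The share of cells with Itgb7 was 18.1% (14.9 to 21.7) against 43.0% (39.5 to 46.7) in CD137 minus and 15.2% (13.4 to 17.1) against 40.8% (38.1 to 43.6) in CD137 plus, and after thinning 14.2% against 31.8% and 12.8% against 33.9%. It was the 1 member called lower in each library, where 4.40% and 4.21% of measured genes were called lower.

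Itga1 was at 46.1 CPM with Pdcd1 and 13.46 CPM without in tumour CD137 minus, a log2 ratio of 1.70, and at 36.9 and 20.2 CPM in tumour CD137 plus, a ratio of 0.84. Less the median these were 1.26 and 0.50. In CD137 minus, Itga1 passed the level filter only through the cells with Pdcd1. Itgb1 was at 445 and 191 CPM in CD137 minus (1.22) and at 389 and 215 CPM in CD137 plus (0.85), or 0.77 and 0.52 less the median. The share of cells with Itgb1 was 62.6% against 32.0% in CD137 minus and 58.7% against 36.6% in CD137 plus, and after thinning 49.2% against 25.4% and 52.1% against 32.3%.

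As measured, Itga4, Itgal, Itgb1 and Itgb2 were called higher with Pdcd1 in CD137 minus cells, where 44.5% of 5631 measured genes were. Itga1 is not counted as a call there, because of the level filter. In CD137 plus cells Itga1 and Itgb1 were called higher, where 31.7% of 5653 measured genes were. The ratio was 0.93 in CD137 minus and 0.49 in CD137 plus for Itga4, 0.52 and 0.42 for Itgal and 0.63 and 0.49 for Itgb2. Itga4 lay at the 84.3rd percentile of measured genes in CD137 minus and the 67.5th in CD137 plus. Less the median, 15.4% of genes in CD137 minus and 11% in CD137 plus were called higher, and 14.2% and 11.9% lower. The called members were then Itgb1 and Itgb7 in both libraries and Itga1 in CD137 plus. Itga4 came to 0.49 and 0.15, Itgal to 0.07 and 0.08 and Itgb2 to 0.19 and 0.16. Itgae was under the level filter in both, at 17.8 against 18.8 CPM in CD137 minus and 11.7 against 14.3 CPM in CD137 plus.

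Between the fractions, cells with Pdcd1 had 1 call, Itgb2, at 166 CPM in CD137 minus and 235 CPM in CD137 plus (-0.50), where 2.99% of 5785 measured genes were called lower and 3.44% higher. That value lies at the size limit, and it was -0.40 with a fixed total per cell. In cells without Pdcd1, where 9.09% of 4863 measured genes were called lower and 1.65% higher, Itgb2 was at 107 and 167 CPM (-0.64) and Itga1 at 13.46 and 20.2 CPM (-0.55). Itga1 passed the level filter only through the CD137 plus cells, in which it was higher. It came to -0.36 with a pseudocount of 10 CPM, and less the median of all genes it came to -0.42.

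Tumour cells were also divided by Havcr2, the gene of TIM-3, a receptor of terminally exhausted cells. The 3 ranges were cells without Pdcd1, cells with Pdcd1 and no Havcr2, and cells with Pdcd1 and Havcr2. In this order the share of cells with Itgb7 in tumour CD137 minus was 43.0%, 21.1% (17.2 to 25.3) and 5.21% (1.71 to 11.7). In tumour CD137 plus it was 40.8%, 17.5% (15.4 to 19.7) and 5.23% (2.95 to 8.47). In both libraries the intervals of the 3 ranges did not overlap, and the last range, with 96 and 287 cells, had the most genes per cell, with medians of 1998 and 1766. Its Itgb7 level was 12.6 and 22.4 CPM. After thinning the shares were 31.8%, 17.0% and 2.08% in CD137 minus and 33.9%, 14.9% and 3.83% in CD137 plus, and the intervals again did not overlap.

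The share of cells with Itga1 over the same 3 ranges was 4.28% (2.94 to 5.99), 12.7% (9.64 to 16.3) and 15.6% (9.02 to 24.5) in CD137 minus, and 5.73% (4.50 to 7.17), 10.4% (8.76 to 12.2) and 16.0% (11.98 to 20.8) in CD137 plus. The first range lay apart from the other two in both libraries, and the intervals of the last 2 overlapped. The thinned shares were 2.67%, 8.37% and 9.38% in CD137 minus and 4.60%, 8.06% and 10.8% in CD137 plus, with the first range again apart. Free RNA in droplets can give a value to cells that do not express a gene. The lowest Itga1 shares were in spleen cells without Ccl5, with 0 of 1278 cells in CD137 minus (median total 3882.5), which by a floor of 3 counts allows a share of up to 0.235%, and 0 of 146 in CD137 plus (median total 5477.5), which allows up to 2.05%. In spleen cells with Ccl5, Itga1 was found in 0.927% (0.464 to 1.65) of CD137 minus and 2.14% (0.865 to 4.36) of CD137 plus. Melanoma cells were not used as a reference, because 0 tumour cells had at least 3 melanoma markers and neither Cd8a nor Cd8b1. The spleen shares do not measure free RNA in the tumour libraries, so the part of free RNA in the tumour Itga1 shares is unknown.

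Itgb1 was found in 32.0%, 61.7% and 66.7% of tumour CD137 minus cells over the 3 ranges and in 36.6%, 59.0% and 57.8% of tumour CD137 plus cells. After thinning these were 25.4%, 49.0% and 50%, and 32.3%, 53.2% and 47.4%. The last 2 ranges overlapped in their intervals in each library, with and without thinning. Itga4 was found in 22.7%, 40.0% and 47.9% in CD137 minus and in 25.1%, 36.4% and 39.7% in CD137 plus. Itgb2 was found in 55.2% and 62.7% of the cells with Pdcd1 and Havcr2 and in 33.0% and 37.4% of the cells without Pdcd1. Itgal was found in 44.8% and 33.8% of the former and in 26.1% and 20.3% of the latter. The thinned shares of Itga4 in the first and last range were 16.8% and 34.4% in CD137 minus and 21.5% and 33.4% in CD137 plus. Those of Itgal were 17.6% and 35.4%, and 15.6% and 23.0%, and those of Itgb2 23.1% and 42.7%, and 32.3% and 51.9%. Itgae had its lowest shares, as Itgb7 did, in the cells with Pdcd1 and Havcr2, at 3.12% (0.649 to 8.86) and 2.09% (0.771 to 4.49), although these intervals overlapped those of the cells without Pdcd1 at 6.28% (4.65 to 8.27) and 4.68% (3.57 to 6.01).

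**Figure D3:**
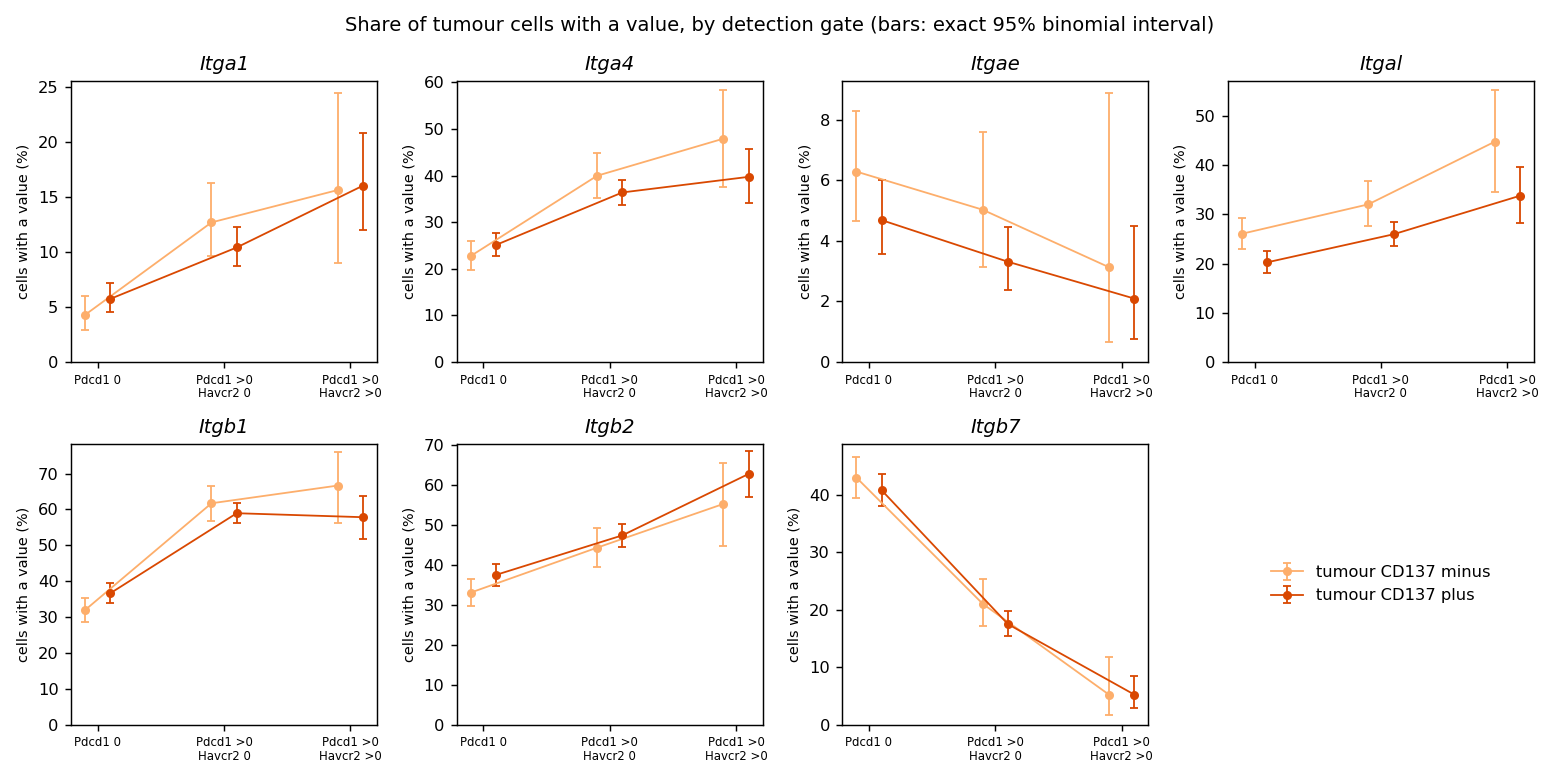
Share of tumour cells with a value for each integrin gene (%), in 3 ranges of Pdcd1 and Havcr2 detection, for tumour CD137 minus (light) and tumour CD137 plus (dark), with exact 95% binomial intervals. Lines join the ranges of a library. The Itgb7 share goes from 43.0% and 40.8% at the left to 5.21% and 5.23% at the right, while Itga1 goes from 4.28% and 5.73% to 15.6% and 16.0%.

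Itgb7 and Itgb1 were then read in the same cells. Cells with Itgb7 and no Itgb1 were 52.3% of spleen CD137 minus and 53.5% of spleen CD137 plus, against 20.7% and 15.0% of the CD137 minus and CD137 plus tumour libraries. Cells with Itgb1 and no Itgb7 were 6.45% and 7.40% of the spleen libraries and 32.3% and 37.2% of the tumour libraries. Over whole libraries the balance of the 2 beta chains was thus reversed between organs in both fractions. Tumour cells without Pdcd1 kept the order of the spleen, but with a smaller gap. The Itgb7 pattern made up 29.8% and the Itgb1 pattern 18.7% of these cells in CD137 minus, and 26.7% and 22.5% in CD137 plus. Shares of these patterns were not thinned. Among tumour cells with Pdcd1 the Itgb1 pattern made up 52.0% in CD137 minus and 49.1% in CD137 plus, and the Itgb7 pattern 7.39% and 5.50%. In cells with Pdcd1 and Havcr2 the Itgb7 pattern was down to 1.04% and 2.09%. Cells with both beta chains made up 9.29% and 23.0% of the spleen libraries and 12.2% and 11.7% of the tumour libraries.

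**Figure D4:**
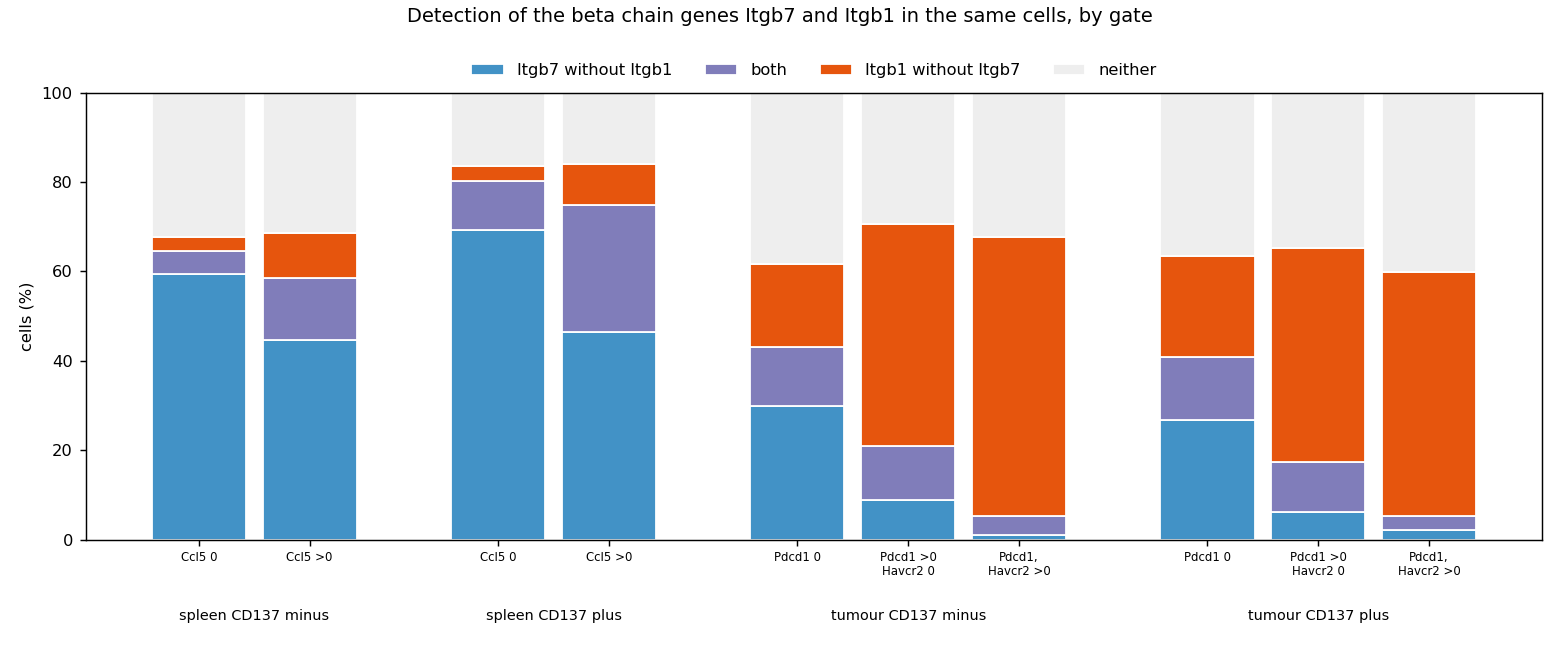
Share of cells (%) with Itgb7 and no Itgb1, with both, with Itgb1 and no Itgb7 and with neither, stacked to 100% for 10 ranges of detection in the 4 libraries. From left to right within each tumour library the Itgb7 pattern narrows and the Itgb1 pattern widens, to 62.5% and 54.7% in the cells with Pdcd1 and Havcr2.

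The 2 residency alpha chains were both found in few cells. In tumour CD137 minus, 95 cells had Itga1 without Itgae, 66 had Itgae without Itga1 and 5 had both. In tumour CD137 plus these were 235, 94 and 11 cells. The share of Itga1 among cells with Itgae was 7.04% in CD137 minus and 10.5% in CD137 plus, against 7.98% and 8.83% among cells without it. In spleen, where 11 and 7 cells had Itga1, no cell had both.

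Each alpha chain was compared with its partner in the same cells. Itgb1 was found in 71.0% (61.1 to 79.6) of tumour CD137 minus cells with Itga1 and 42.2% (39.3 to 45.1) of those without, and in 65.9% (59.6 to 71.8) and 47.2% (45.2 to 49.1) in tumour CD137 plus. After thinning these were 68.8% against 33.3% and 60.6% against 42.0%, and the intervals stayed apart. Among cells with Pdcd1 alone the shares were 82.4% against 59.6% in CD137 minus, and 66.9% (59.4 to 73.8) against 57.7% (55.0 to 60.3) in CD137 plus, where the intervals overlapped.

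Over whole tumour libraries, cells with Itga4 had Itgb1 more often, and for Itgb7 the intervals overlapped. Itgb1 was found in 55.9% (50.7 to 60.9) of tumour CD137 minus cells with Itga4 and 39.5% (36.2 to 42.8) without, and in 58.7% (55.3 to 62.0) and 44.3% (42.0 to 46.6) in tumour CD137 plus. Among cells with Pdcd1 these shares were 68.5% (61.8 to 74.7) and 58.5% (52.7 to 64.1) in CD137 minus, and 62.8% (58.7 to 66.8) and 56.3% (53.1 to 59.5) in CD137 plus, with overlapping intervals. Among cells without Pdcd1 they were 40.0% (32.6 to 47.8) and 29.6% (25.9 to 33.5) in CD137 minus, which overlapped, and 51.1% (45.4 to 56.8) and 31.8% (28.8 to 34.9) in CD137 plus, which did not. After thinning the intervals lay apart in all 4 of these splits, for example at 62.1% (53.9 to 69.8) and 43.8% (38.6 to 49.1) in CD137 minus cells with Pdcd1. Itgb7 was found in 31.3% (26.7 to 36.2) with Itga4 and 33.6% (30.4 to 36.8) without in CD137 minus, and in 24.3% (21.5 to 27.3) and 27.8% (25.8 to 29.9) in CD137 plus. In spleen the intervals of Itgb1 with and without Itga4 overlapped, at 17.0% (14.2 to 20.04) and 15.3% (13.7 to 17.0) in CD137 minus and 31.3% (23.9 to 39.5) and 30.1% (25.1 to 35.4) in CD137 plus.

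Itgb7 was found in 44.8% (35.0 to 54.8) of tumour CD137 plus cells with Itgae and 26.0% (24.3 to 27.7) of those without, and in 72.0% (65.0 to 78.4) and 60.8% (58.7 to 62.8) in spleen CD137 minus. In tumour CD137 minus it was 39.4% (28.0 to 51.8) against 32.5% (29.8 to 35.2), and in spleen CD137 plus 80.8% (60.6 to 93.4) against 76.3% (72.1 to 80.2), with overlapping intervals. Itgb2 was found with Itgal in 45.2% against 35.6% of cells in tumour CD137 minus, and in 56.0% against 40.8% in tumour CD137 plus. After thinning the Itgb2 shares were 31.4% (25.7 to 37.5) against 26.1% (23.4 to 28.9) in CD137 minus, where the intervals overlapped, and 47.6% (43.2 to 51.9) against 35.2% (33.3 to 37.2) in CD137 plus.

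**Figure D5:**
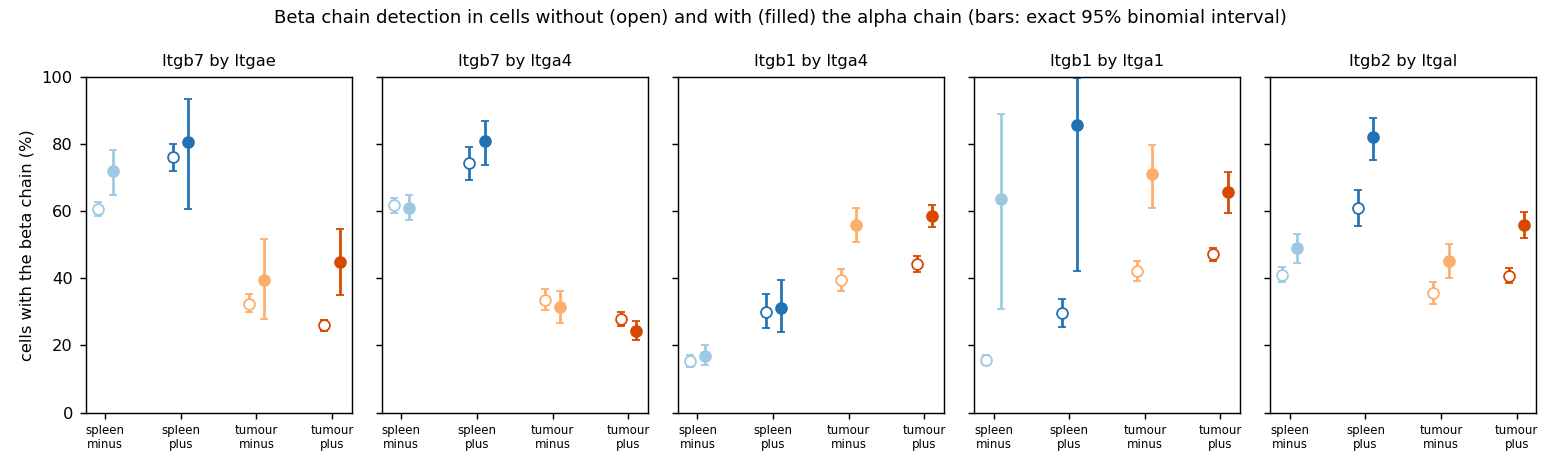
Share of cells with the beta chain gene (%) among cells without (open) and with (filled) the alpha chain gene, in each library, with exact 95% binomial intervals. Itgb1 is more frequent with Itga1 in both tumour libraries, and the intervals of Itgb7 with and without Itga4 overlap there.

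Other genes of the adhesion pathway were read from lists of names. Their counts stand against the shares of all measured genes given above, which between tumour and spleen were 24.2% higher and 17.5% lower in CD137 plus and 22.0% and 14.5% in CD137 minus, and by Pdcd1 31.7% and 4.21% in CD137 plus and 44.5% and 4.40% in CD137 minus. Ratios by Pdcd1 in the lists are as measured, with the general shift of 0.44 in CD137 minus and 0.34 in CD137 plus in them, unless said otherwise. List counts, and the shares of all measured genes, include genes that passed the level filter through 1 of the groups alone. Calls of such genes could go only 1 way. Of 19 other integrin subunits 10 are in the table. Between tumour and spleen, 1 was measured in CD137 plus cells and 2 in CD137 minus cells. Itgav, the alpha chain of vitronectin receptors that release active TGF-beta, was measured in both. It passed the level filter through the tumour libraries alone, so any call of it between organs had to be one of higher. Itgav was at 11.4 CPM in spleen CD137 plus and 108 CPM in tumour CD137 plus (log2 ratio 3.15), and at 12.9 and 96.9 CPM in CD137 minus (2.81). With Pdcd1 it was at 186 against 35.3 CPM in tumour CD137 minus (2.36) and at 154 against 50.3 CPM in tumour CD137 plus (1.60), or 1.92 and 1.26 less the median.

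Of 39 genes that activate integrins or link them to the cytoskeleton, 29 were measured between tumour and spleen in CD137 plus cells, 3 higher and 9 lower in tumour, with a median of -0.15. In CD137 minus cells 28 were measured, 2 higher and 5 lower, with a median of -0.09. Those furthest from 0 in CD137 plus cells were Rasgrp2 (-1.94), which activates the small GTPase Rap1 that switches integrins on, Arhgap15 (-1.11), Cyth1 (-1.08), a cytohesin that binds the LFA-1 beta chain, and Rasgrp1 (-1.02). In CD137 minus cells the same genes were at -1.47, -0.65, -0.90 and -0.75. By Pdcd1, Rasgrp2 was at 28.3 against 107 CPM in CD137 minus (-1.88) and 21.8 against 94.3 CPM in CD137 plus (-2.06), or -2.32 and -2.40 less the median. The list as a whole had 9 higher and 2 lower of 29 in CD137 minus and 6 higher and 2 lower of 28 in CD137 plus, and 3 higher and 8 lower, and 1 higher and 7 lower, less the median of all genes.

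Of 18 ligands of these integrins 8 are in the table. Icam1, a ligand of LFA-1, was higher in tumour (1.62 in CD137 plus and 1.68 in CD137 minus) and Icam2 lower (-1.81 and -1.45). In CD137 plus cells Icam2 passed the level filter through spleen alone, so any call of it there had to be one of lower. Spp1, the gene of osteopontin, a ligand of several integrins, was at 535 against 40.7 CPM by Pdcd1 in tumour CD137 minus (3.69) and 357 against 87.0 CPM in tumour CD137 plus (2.02), or 3.24 and 1.69 less the median.

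The receptors and signalling genes of TGF-beta formed a further list. In CD137 plus cells 8 of 20 were measured, 5 higher and 1 lower in tumour, and in CD137 minus cells 10, with 6 higher and 0 lower. The medians were 1.85 and 1.82. The genes furthest from 0 in CD137 plus cells were Tgif1 (3.23), a repressor of SMAD targets, Pmepa1 (2.47), an inhibitor of SMAD signalling, Smad7 (2.21), an inhibitor of the receptor, and Skil (2.05), a further repressor of SMADs, and in CD137 minus cells they were at 3.59, 2.21, 2.36 and 2.35. All 4 are known as negative regulators of the pathway. Pmepa1 in both fractions and Tgif1 in CD137 minus cells passed the level filter through tumour alone. Any call of them there had to be one of higher. By Pdcd1 the list had 1 higher and 0 lower of 10 in each library, Tgfb1 in both (1.09 in CD137 minus and 0.72 in CD137 plus). Less the median it had 1 higher and 2 lower in CD137 minus and 0 higher and 3 lower in CD137 plus, where the Tgfb1 call was lost (0.65 and 0.39).

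The residency list holds both genes that are high and genes that are low in resident T cells. In CD137 plus cells 20 of 26 were measured, 12 higher and 4 lower in tumour (median 1.79), and in CD137 minus cells 19, 14 higher and 3 lower (median 2.24). The largest ratios in CD137 plus cells were those of the nuclear receptors Nr4a2 (6.21) and Nr4a3 (5.23), of Pdcd1 (5.60) and of Rgs1 (4.43), which encodes a regulator of G protein signals. They were 6.63, 5.24, 5.90 and 4.78 in CD137 minus cells. Nr4a2, Nr4a3 and Pdcd1 passed the level filter through the tumour libraries alone, so any call of them had to be one of higher. In CD137 plus cells this also held for Bhlhe40, Nr4a1, Rgs2 and Ctla4. S1pr5 passed there through spleen alone, so any call of it had to be one of lower. The counts of the list include these genes. The levels of genes known to be low in resident cells did not all go one way. Tcf7 was at -1.98 and -1.68 and S1pr1, the receptor for egress from tissue, at -1.88 and -1.33. Klf2, a factor that maintains S1pr1, was at 0.48 in CD137 plus and at 0.65, a call of higher, in CD137 minus, and Ccr7 at 0.29 and 0.35. Shares of cells with a value went the other way in CD137 plus, without thinning. Klf2 was found in 91.3% of spleen and 53.1% of tumour CD137 plus cells, and Ccr7 in 73.2% and 34.4%. By Pdcd1 this list had 10 higher and 6 lower of 18 in CD137 minus and 10 higher and 6 lower of 19 in CD137 plus. Less the median these were 9 higher and 6 lower, and 9 higher and 7 lower. Klf2 was at -2.25 and -2.61 (-2.70 and -2.94 less the median), and Cxcr6, a chemokine receptor of resident cells, at 2.41 and 1.66 (1.97 and 1.33).

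Of 26 other adhesion and homing genes, 18 were measured between tumour and spleen in CD137 plus cells, 2 higher and 6 lower, and 16 in CD137 minus cells, 3 higher and 2 lower. Cd44, the hyaluronan receptor of activated T cells, was at 1.09 and 1.20 and Pecam1 at -1.13 and -0.78. Pecam1 passed the level filter through the spleen libraries alone, so any call of it had to be one of lower. By Pdcd1 the list had 10 higher and 2 lower of 18 in CD137 minus and 5 higher and 2 lower of 17 in CD137 plus, with Ccr8, a chemokine receptor, at 2.97 and 2.26 (2.52 and 1.92 less the median). Less the median the counts were 2 higher and 3 lower in CD137 minus and 2 higher and 2 lower in CD137 plus. In spleen, CD137 minus against plus, the list had 1 higher and 6 lower of 18, with Cx3cr1, the fractalkine receptor of effector cells, at -2.13. Cx3cr1 passed the level filter there through the CD137 plus library alone, so any call of it had to be one of lower.

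Tumour cells with and without Itga1, Itgae and Itgb7 were compared for the residency list. The 100 cells with Itga1 in CD137 minus had 10 genes higher and 6 lower of 20, where 30.4% of measured genes were called higher and 6.85% lower. The 246 cells with Itga1 in CD137 plus had 4 higher and 6 lower of 20, where 15.0% and 2.68% were. Less the medians of all genes, which were 0.27 and 0.18, the list had 5 higher and 6 lower in CD137 minus and 1 higher and 7 lower in CD137 plus. Klf2 (-2.29 in CD137 minus and -1.41 in CD137 plus), Ccr7 (-2.04 and -1.96) and Tcf7 (-1.33 and -1.40), genes of naive and stem-like cells, were lower with Itga1 in both libraries. Zfp683, the gene of the residency factor Hobit, was at 22.4 against 5.25 CPM in CD137 plus (1.90). It could pass the level filter only through the cells with Itga1, so any call of it had to be one of higher.

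The 71 cells with Itgae in CD137 minus had 1 gene of the list higher and 4 lower of 20, where 19.2% and 10.5% of measured genes were called, and the 105 in CD137 plus had 4 higher and 3 lower, where 14.9% and 8.34% were. Markers of other cells were higher in the 71 cells than in the other CD137 minus cells, with summed levels of 1165 against 311 CPM for 7 B cell markers, 485 against 176 CPM for 7 macrophage and monocyte markers and 105 against 23.7 CPM for 6 dendritic cell markers, of which 3, 3 and 2 were at 0 in the 71 cells. The B cell markers at 0 were Cd79a, Ms4a1 and Ebf1, which were at 0 in the whole tumour CD137 minus library. The B cell sum there came from Cd79b, Cd74, H2-Aa and Ighm alone. In the CD137 plus cells with Itgae the sums of the same 3 lists were lower than in the others, at 382 against 539, 241 against 298 and 5.03 against 35.3 CPM. The part of these other cells' markers in the counts was not tested. Counts were also made among cells with Cd8a or Cd8b1 and without Cd79a, Lyz2, C1qa, Mlana or Pmel. Cd79a was at 0 in tumour CD137 minus, and all 71 cells with Itgae stayed there. The restriction thus took no cell from that group, and its counts were again 1 higher and 4 lower. In CD137 plus, with 95 cells left, the counts were 3 higher and 4 lower. Eomes, a T-box factor known to be low in CD103 cells, was at 2.91 against 35.8 CPM in CD137 minus and at 25.1 against 43.3 CPM in CD137 plus (-0.76). The CD137 minus level with Itgae is 1 corrected count and the CD137 plus level 10, so no fold is given for the former. Cd101, a surface marker of resident cells, was at 23.2 against 12.6 CPM in CD137 minus (0.83) and at 25.1 against 16.0 CPM in CD137 plus (0.62). It passed the level filter only through the cells with Itgae, so any call of it had to be one of higher. Its levels there rest on 8 and 10 corrected counts. In CD137 minus it was the 1 gene of the list called higher. Under the restriction above the ratios came to 0.87 and 0.497. Cells with Itgb7 had 4 genes higher and 10 lower of 19 in CD137 minus, where 2.82% and 13.6% of measured genes were called, and 6 higher and 9 lower of 19 in CD137 plus, where 4.38% and 12.9% were. Pdcd1 (-1.66 and -1.50) and Cxcr6 (-1.65 and -1.38) were lower with Itgb7, and Klf3 (0.84 and 0.99) was higher.

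Across 10 groups of cells, made from the disjoint ranges of detection in the 4 libraries, each integrin gene was set beside 6513 genes by Pearson's r of log2(CPM + 1). The groups share libraries and depth, so r is a description. The genes most like Itga1 were Fgl2, Runx2os1 and Ifng (0.99 each), and those most like Itgb1 were Fasl, S100a6 and S100a4 (0.99 each). For Itgb7 they were Cd2ap (0.99), St6gal1 (0.98) and Psme1 (0.98). For Itga4 they were H2-D1, Tnrc18 and Rc3h1 (0.97 each), for Itgal Prex1 (0.99), Map7d1 (0.98) and Map4 (0.97), and for Itgb2 Ptpn6 (0.96), Cmc2 (0.95) and Tardbp (0.94). Itgae had Cd9 at 0.95 and then Eng and Zfp580 at 0.86. By Spearman's rho the order differed, and Ifng ranked 385 for Itga1, S100a4 452 for Itgb1 and Tnrc18 355 for Itga4. Among the members Itga1 and Itgb1 were the closest pair (0.97), followed by Itga4 and Itgal (0.94), and Itga1 and Itgb7 were the most opposed (-0.79).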

How the data were processed

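Single-cell 5' RNA libraries of 4 groups were used, 1 library each. Cell Ranger 3.0.2 and Seurat 3.0 with mm10 were used upstream, per the submitters' processing notes; the sources used here give no parameters and no filters on cells or doublets, and no doublet caller was run. The authors deposited 1 table in natural log units, and its values are logs of 1 plus a whole number. The narrow totals per cell (2949 to 5872) are read as counts corrected for depth, which no label states, so no count model was fitted. Library totals were 9829562, 2466601, 6037757 and 10273681 corrected counts for spleen CD137 minus and plus and tumour CD137 minus and plus. Groups follow the CD137 status in the titles, because source names and the sorting protocol give the tomato colour in opposite ways.

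Corrected counts were summed per group and scaled to 1000000. Calls used the level filter and size limit given above. The ratio and its calls were tested on simulated data. Shares have exact 95% intervals. Named genes are the 7 members, up to 4 measured genes of each list furthest from 0 in CD137 plus tumour against spleen or by Pdcd1, and the 3 genes most like each member, without unnamed, receptor, mitochondrial and ribosomal genes. Examples for the spleen, the residency genes that are low in resident cells between organs and examples for cells with Itga1, Itgae or Itgb7 were chosen after their values were seen, as were the comparisons by Itga1, Itgae and Itgb7. One gene of the planned lists and ranges is not reported here, and ranges were redrawn without it after the data were seen. The members and lists were chosen with earlier results of these data known. Alternatives were another pseudocount, no filter, ratios less the median, sums of natural logs, a size limit of 1, thinning and cells without other markers, and, added after seeing the data, cells without shared barcodes, Pdcd1 of at least 2 and, for the comparisons by Itga1, Itgae and Itgb7, cells without other markers. Software was Python 3.11.15 with pandas 2.3.3, numpy 2.4.6, scipy 1.17.1 and, for plots, matplotlib 3.10.9.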

Additional observations from a re-analysis of the deposited data

Results flagged for a closer look

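Pairs of differences with opposite signs are given here as values, and the difference between the 2 was not tested. The log2 ratio of CD137 minus over plus for Itgb7 was 0.014 in tumour and -0.17 in spleen. The log2 ratio of tumour over spleen was -0.0038 in CD137 plus and 0.45 in CD137 minus cells for Itga4, and -0.11 and 0.45 for Itgal. Among tumour cells, the log2 ratio of CD137 minus over plus in cells with Pdcd1 and in cells without it was 0.32 and -0.55 for Itga1, 0.052 and -0.39 for Itga4, 0.084 and -0.016 for Itgal, and 0.19 and -0.17 for Itgb1. All lie within 0.5 of 0 except the Itga1 value in cells without Pdcd1.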

How the results depend on the processing

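No paired analysis was possible because each group is 1 library. No ratio changed its sign while called. Counts of called members in this section include those that passed the level filter through 1 group alone, such as Itga1. Over all alternatives, 378 ratios kept their call and moved by under 0.5, and 35 did not, while 48 counts of called members stayed within 1.5 times and 19 did not. The counts of members called were, with a size limit of 1 in place of 0.5, 0 in place of 1 between the tumour libraries, 1 in place of 5, Itgae included, between the spleen libraries, 3 in place of 6 by Pdcd1 in CD137 minus, 1 in place of 3 by Pdcd1 in CD137 plus, and 0 in place of 1 and 2 between fractions in cells with and without Pdcd1. With cells thinned to 1 total it was 5 in place of 3 for CD137 minus tumour against spleen, and 0 and 1 in cells with and without Pdcd1. Less the median of all genes it was 3 by Pdcd1 in CD137 minus, and 0 and 1 in cells with and without Pdcd1. A pseudocount of 10 CPM gave 0 and 1 in these 2 comparisons, and sums of natural logs 0 in both. Without a filter on low values the count in cells with Pdcd1 was 2. With Pdcd1 of at least 2, chosen after seeing the data, it was 5 by Pdcd1 in CD137 plus, and 3 between fractions. After thinning, 50 shares of cells left their counting interval and 6 did not, and in cells without other markers all 56 stayed in it. No library can be left out, since each is its group.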
